A study of Mus musculus with 16 samples.

Results

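The genes described here control the conversion of plasminogen to plasmin in the colon mucosa of sulindac-fed mice. The set names 9 genes: the activators Plat and Plau, the receptors Plaur, Anxa2 and S100a10, the inhibitors Serpine2, Serpinb2 and Serpinf2, and the zymogen Plg. They were found by platform gene symbol, and 8 of them had a row among the 30710 genes tested. Each of the 8 had 1 row, so no choice between rows was needed, and Serpine2 was not analysed here. The set was chosen by earlier results of these same arrays, in which Plat differed between KO and WT lesions. The values that chose Plat are therefore given as a description with no p-value, and counts of members are no independent support.

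Male C57BL/6J mice were fed control diet or a diet with 320 ppm sulindac for 10 weeks, starting at 6 weeks of age. Sulindac is a non-steroidal anti-inflammatory drug that blocks prostaglandin synthesis. All animals were homozygous for a floxed Mcc allele (Mccf/f). The knockout animals (VILcreMccf/f, called KO) also carried a Cre transgene driven by the villin promoter, which is active in intestinal epithelium, so that other cell types keep Mcc. Their Mccf/f siblings without Cre are called WT. The mucosal layer was taken from inflamed areas of the proximal colon after sulindac, called lesions, and from matching normal tissue after control diet. There were 6 WT control, 3 WT lesion, 3 KO control and 4 KO lesion arrays. No array holds uninflamed mucosa of sulindac-fed mice, so the drug and the choice of inflamed tissue cannot be told apart.

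Plasminogen is a circulating zymogen made mainly by the liver. Tissue-type plasminogen activator (tPA, from Plat) and urokinase (uPA, from Plau) cut it to plasmin, a protease that dissolves fibrin and helps to break down matrix. Urokinase works while bound to its receptor uPAR (Plaur), and annexin A2 with its partner p11 (Anxa2 and S100a10) holds plasminogen and tPA on cell surfaces. Serpins restrain both steps: plasminogen activator inhibitors act on the activators, and alpha-2-antiplasmin (Serpinf2) acts on plasmin. In the gut the system is known for its part in wound repair and in the inflamed mucosa.

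Values are log2 expression after RMA, a method that corrects background, normalises arrays to a common distribution and summarises the probes of a transcript. Array medians over all rows lay between 4.90 and 5.05. The arrays gave no detection calls, and levels were not compared between genes. Mcc was between 6.39 and 6.71 on KO arrays and between 7.06 and 7.40 on WT arrays. None of the 8 colon epithelium markers or 5 goblet cell markers was below the array median throughout any group, and the mean of the epithelium list was 11.4 to 11.8 on every array. That mean hides single epithelium markers that moved in opposite directions in lesions, given below. KO lesion 3 stood apart: without it, the number of genes called between KO and WT lesions went from 94 to 1698, and the number in the interaction from 1 to 518. Without any other single lesion the first number was between 4 and 52. KO controls and lesions also come from different number series in the sample descriptions, so that series and diet cannot be told apart within KO. WT controls came from both series and WT lesions from the lower series alone. Any difference between the series could therefore also enter the control diet comparison and the interaction. Labels do not say which arrays come from separate animals, and p-values measure the spread between these arrays. That spread was pooled over the 4 groups for each gene. KO lesions had the largest SD of the groups for every member analysed except Plg and Anxa2. Intervals and p-values of comparisons with KO lesions may therefore be too small for those members. In bulk tissue, more cells of a type and more RNA per cell cannot be told apart.

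In lesions both activators, the urokinase receptor and both annexin complex genes were higher than in control mucosa in each genotype, while Plg and Serpinf2 did not pass the test in either. A gene was called where its limma adjusted p over all 30710 genes was under 0.05. In WT lesions 5 of 8 members were called higher and none lower, where 6.98% of all genes were called higher and 8.37% lower. In KO lesions 6 of 8 were called higher and none lower, where 8.99% of all genes were called higher and 12.1% lower, and the added gene was Serpinb2. The median log2 difference of the 8 members was 0.77 in WT and 1.65 in KO, against -0.06 and 0.01 over all genes. Because the members were chosen with such results known, nothing is read from these shares.

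**Figure D1:**
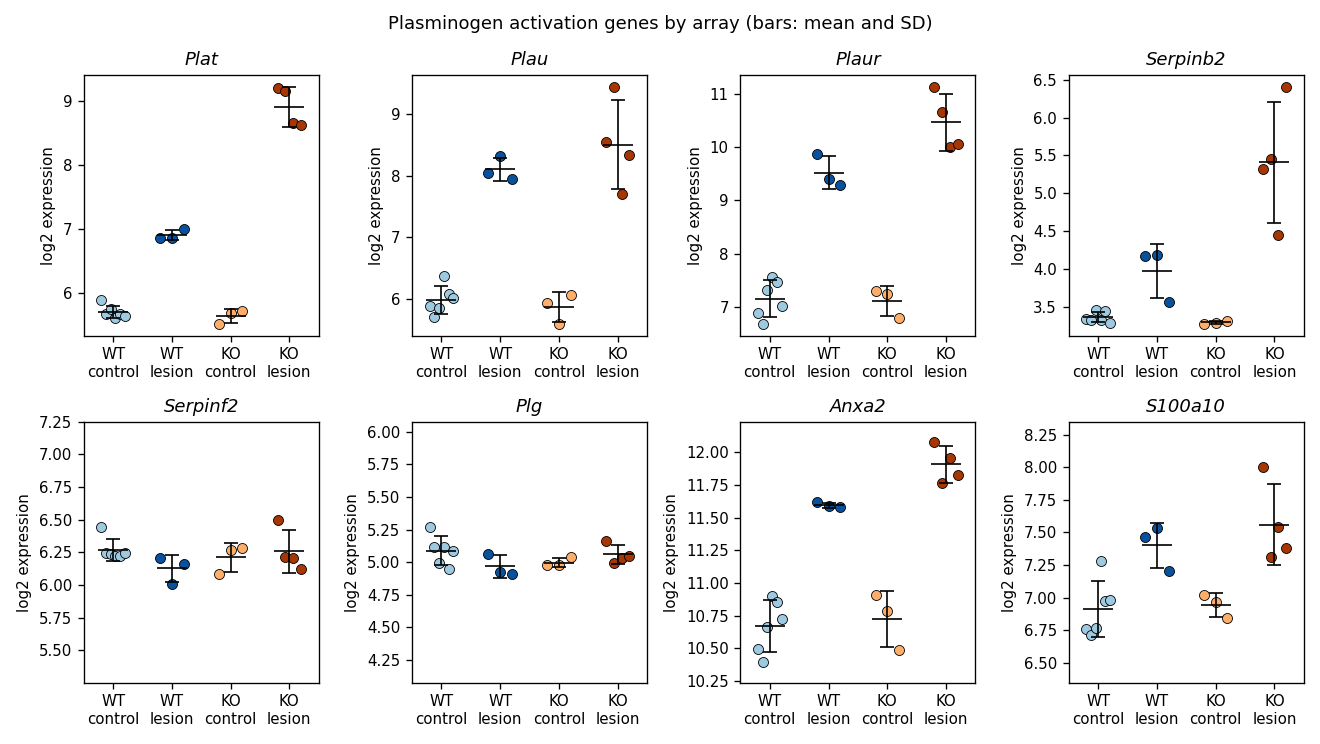
Log2 expression (y axis) of the 8 members on each array, by group (x axis). Points are arrays, the horizontal bar is the group mean and the whiskers are 1 SD; each panel has its own y axis. KO lesions of Plat lie between 8.62 and 9.21, above WT lesions at 6.86 to 6.999, while the groups of Plg and Serpinf2 next to each other in mean level overlap.

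Plat encodes tissue-type plasminogen activator, the activator best known for clearing fibrin. Its log2 level in WT controls ran from 5.61 to 5.89 with a median of 5.68. In WT lesions it was 6.87, 6.86 and 6.999. KO controls stood at 5.53, 5.69 and 5.72, within or just below the WT control range. KO lesions stood at 9.21, 9.15, 8.66 and 8.62, so the lesion groups did not overlap each other or either control group. The mean of the WT controls was 5.71 ± 0.10 (SD, n = 6) and that of the KO controls 5.65 ± 0.11 (SD, n = 3). WT lesions averaged 6.91 ± 0.08 (SD, n = 3), and KO lesions 8.91 ± 0.31 (SD, n = 4). The lesion difference was 1.20 (SE 0.12) in WT, or 2.30-fold. In KO it was 3.26 (SE 0.13), or 9.61-fold.

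Plau encodes urokinase, the activator that works at the cell surface during cell migration. WT controls ran from 5.71 to 6.37 with a median of 5.96, and WT lesions were 8.05, 8.31 and 7.95. KO controls were 5.94, 5.59 and 6.07, and KO lesions were 8.54, 9.44, 7.70 and 8.33. Each lesion group lay above both control groups, and the lesion groups overlapped, with KO lesion 3 the lowest and KO lesion 2 the highest of all lesions. Plau rose 4.33-fold in WT lesions (log2 2.11, SE 0.26, limma adjusted p = 4.79e-05) and 6.21-fold in KO lesions (log2 2.64, SE 0.28, limma adjusted p = 8.44e-06).

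Plaur encodes the urokinase receptor, a membrane-anchored protein that focuses plasmin formation on the cell surface. WT controls ran from 6.69 to 7.56 with a median of 7.18, and WT lesions were 9.87, 9.40 and 9.30. KO controls were 7.31, 7.24 and 6.79, and KO lesions were 11.13, 10.66, 10.01 and 10.05. Every lesion was above every control, and the lowest KO lesion was 0.14 above the highest WT lesion. Plaur rose 5.13-fold in WT lesions (log2 2.36, SE 0.25, limma adjusted p = 1.12e-05) and 10.2-fold in KO lesions (log2 3.35, SE 0.27, limma adjusted p = 4.94e-07).

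Anxa2 and S100a10 form a surface complex that binds plasminogen and tPA. Anxa2 ran from 10.39 to 10.90 in WT controls with a median of 10.70, and stood at 11.62, 11.59 and 11.58 in WT lesions. KO controls were 10.90, 10.79 and 10.48, and KO lesions were 12.08, 11.77, 11.96 and 11.83. Neither lesion group overlapped a control group, and the KO lesions all lay above the WT lesions. Anxa2 rose 1.90-fold in WT lesions (log2 0.93, SE 0.12, limma adjusted p = 5.50e-05) and 2.27-fold in KO lesions (log2 1.18, SE 0.12, limma adjusted p = 7.48e-06).

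S100a10 moved less than its partner. WT controls ran from 6.71 to 7.28 with a median of 6.87, and WT lesions were 7.47, 7.53 and 7.20, so that WT lesion 3 lay inside the control range. KO controls were 7.02, 6.97 and 6.84, and KO lesions were 7.998, 7.31, 7.54 and 7.38, with no overlap between these 2 groups. S100a10 rose 1.40-fold in WT lesions (log2 0.49, SE 0.15, limma adjusted p = 0.0320) and 1.53-fold in KO lesions (log2 0.62, SE 0.16, limma adjusted p = 0.0099). The WT call was lost without WT control 1, 2 or 3 (limma adjusted p = 0.0606, 0.0595 and 0.0601) and without WT lesion 1 or 2 (limma adjusted p = 0.1010 and 0.1443). The KO difference was 0.95 with the number series as a covariate.

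Plg, the zymogen, lay close to the array medians throughout. WT controls ran from 4.95 to 5.27 with a median of 5.10, and WT lesions were 5.07, 4.92 and 4.91. KO controls were 4.98, 4.98 and 5.04, and KO lesions were 5.16, 4.996, 5.03 and 5.05. The ranges overlapped between neighbouring groups. The difference was -0.12 in WT (95% interval -0.27 to 0.03, limma adjusted p = 0.2862) and 0.06 in KO (95% interval -0.10 to 0.23, limma adjusted p = 0.6590).

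Serpinb2 encodes plasminogen activator inhibitor 2, a serpin of activated macrophages and stressed epithelium that inhibits urokinase and tPA. WT controls ran from 3.29 to 3.46 with a median of 3.34, and WT lesions were 4.18, 4.18 and 3.57. KO controls were 3.28, 3.29 and 3.32, and KO lesions were 5.32, 5.45, 4.45 and 6.41. All controls, all WT lesions and 1 of the 4 KO lesions were below the median of their array, where RMA compresses differences, so fold changes of Serpinb2 are uncertain. KO lesions spread most, with an SD of 0.80 against 0.02 in KO controls, and KO lesion 3 was the lowest of them. The difference was 2.11 (SE 0.29) in KO, with a limma adjusted p of 9.12e-05. In WT it was 0.61 (SE 0.27, limma adjusted p = 0.1556), which missed the threshold although the 3 lesions lay above the 6 controls. With only the WT groups in the fit, which leaves out the wider spread of the KO lesions, the WT value had a limma adjusted p of 0.0065.

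Serpinf2 encodes alpha-2-antiplasmin, a liver product and the main plasma inhibitor of plasmin. WT controls ran from 6.22 to 6.44 with a median of 6.24, and WT lesions were 6.21, 6.01 and 6.16, all just below the WT controls. KO controls were 6.08, 6.27 and 6.28, and KO lesions were 6.50, 6.21, 6.21 and 6.12. The difference was -0.14 in WT (95% interval -0.32 to 0.04, limma adjusted p = 0.2973) and 0.05 in KO (95% interval -0.15 to 0.24, limma adjusted p = 0.7945).

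**Figure D2:**
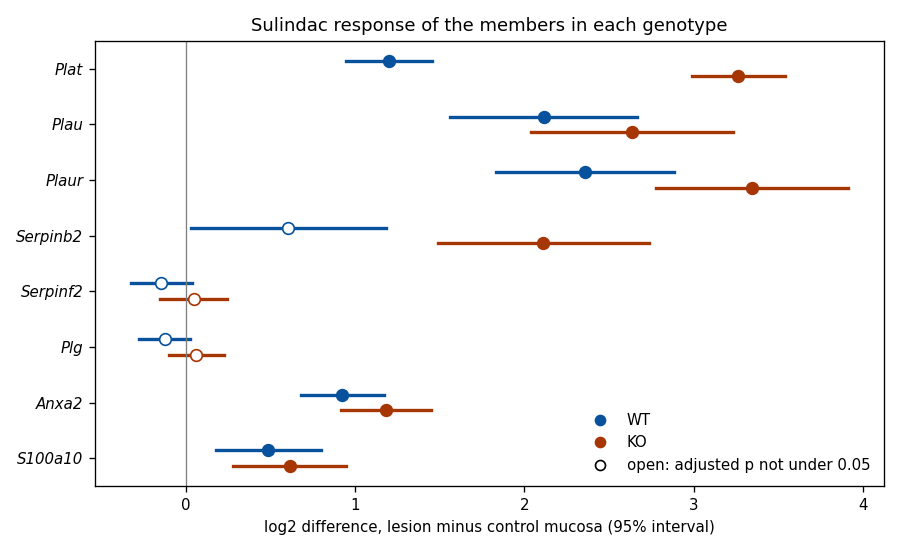
Log2 difference between lesions and control mucosa (x axis) for each member (y axis), in WT and in KO. Points are estimates of the fit over all arrays, lines are 95% intervals and open points did not pass the adjusted threshold. Plaur, Plau and Plat have the largest differences in KO, at 3.35, 2.64 and 3.26, and the intervals of Plg and Serpinf2 cross 0 in both genotypes.

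On the control diet none of the 8 members differed between KO and WT mucosa by limma, where 0% of all genes were called and 641 had an unadjusted p under 0.05. None of the 8 members had an unadjusted p under 0.05. Their differences lay between -0.12 for Plau and 0.05 for Anxa2. The 95% interval for Plat ran from -0.32 to 0.19 around a difference of -0.06. For Plaur it ran from -0.57 to 0.48, and for Plau from -0.67 to 0.43.

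In lesions Plat was 2.001 (SE 0.13) higher in KO than in WT, with a gap of 1.62 between the lowest KO and the highest WT lesion. Plat was the 1 member called, where 0.247% of all genes were called higher, and this is the comparison that chose it. The value was between 1.90 and 2.10 when each lesion array was left out in turn. Same-numbered KO and WT lesions deviated together (r of 0.47, 0.30 and 0.54 across genes, which are not independent replicates). With the replicate number as a block, over 3 pairs, the difference of Plat was 2.10 (SE 0.15), and 0 of 30710 genes passed by limma in that smaller fit.

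Among the other members, Serpinb2 was 1.43 (SE 0.29) higher in KO lesions (limma adjusted p = 0.0564), just outside the threshold. All 4 KO lesions lay above the 3 WT lesions. It passed without KO lesion 3 (1.75, limma adjusted p = 4.29e-04), with array weights (1.78, limma adjusted p = 0.0066) and with arrays centred on their 75th percentiles (1.52, limma adjusted p = 0.0293). Plaur was 0.94 (SE 0.27) higher with a limma adjusted p of 0.1549, and passed without KO lesion 3 (1.09, limma adjusted p = 0.0310). Over all genes 1698 were called without KO lesion 3, 714 with array weights and 217 with the 75th percentiles, against 94. Anxa2 was 0.31 (SE 0.12) higher with a limma adjusted p of 0.2996, also without overlap. The 95% interval of the difference ran from -0.20 to 0.998 for Plau, from -0.18 to 0.49 for S100a10, from -0.06 to 0.33 for Serpinf2 and from -0.07 to 0.25 for Plg, and none of these 4 passed.

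The interaction tests whether the lesion response itself differed between genotypes. Plat, whose KO response was larger by 2.06 (SE 0.17), was the 1 gene called of 30710, a share of 0.00326%, which is again the value that chose it. With the replicate number as a block the interaction of Plat was 2.22 (SE 0.20) and 0 genes passed by limma. Serpinb2 had a larger KO response by 1.51 (SE 0.40, limma adjusted p = 0.3959) and Plaur by 0.99 (SE 0.36, limma adjusted p = 0.4059), and neither passed. Without KO lesion 3 the value of Serpinb2 was 1.82 with a limma adjusted p of 0.0081, where 518 of all genes were called. Plau, the other activator, had an interaction of 0.52 with a 95% interval from -0.29 to 1.33. It was 0.21 without KO lesion 2 and 0.79 without KO lesion 3.

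Markers of other cells were measured in the same lesions. All 7 neutrophil markers had higher means in KO than in WT lesions, and 3 of them passed: Retnlg (log2 2.29, limma adjusted p = 0.0494), Cxcr2 (1.68, limma adjusted p = 0.0445) and Csf3r (1.36, limma adjusted p = 0.0251). The mean of the neutrophil list was 8.23, 9.22, 7.44 and 9.20 in KO lesions and 7.21, 7.05 and 6.47 in WT lesions, against 4.17 to 4.38 in WT controls. None of the 8 monocyte and macrophage markers, 6 fibroblast markers or 7 endothelial markers passed between the lesion groups. Their median differences were 0.30, 0.01 and -0.0031. Of the monocyte and macrophage markers 4 of 8 had an unadjusted p under 0.05, Cd68 with the largest difference (0.77, limma adjusted p = 0.1109, no overlap) and Ms4a7 with the opposite sign. None of 4 B and plasma cell markers passed, with Jchain at -1.51 (limma adjusted p = 0.2548, no overlap) and list means of 5.61 to 5.998 in WT and 4.97 to 5.77 in KO lesions. Of 5 squamous epithelium markers 1 passed, Krt13 (0.50, limma adjusted p = 0.0459), with list means of 5.40 to 5.49 in WT and 5.56 to 5.92 in KO lesions. Over all genes this comparison called 1 with only the lesion groups in the fit and 0 with the replicate block. The calls of Retnlg, Cxcr2, Csf3r and Krt13 therefore depend on the fit. The part of any of these cells in the difference of Plat was not tested.

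**Figure D3:**
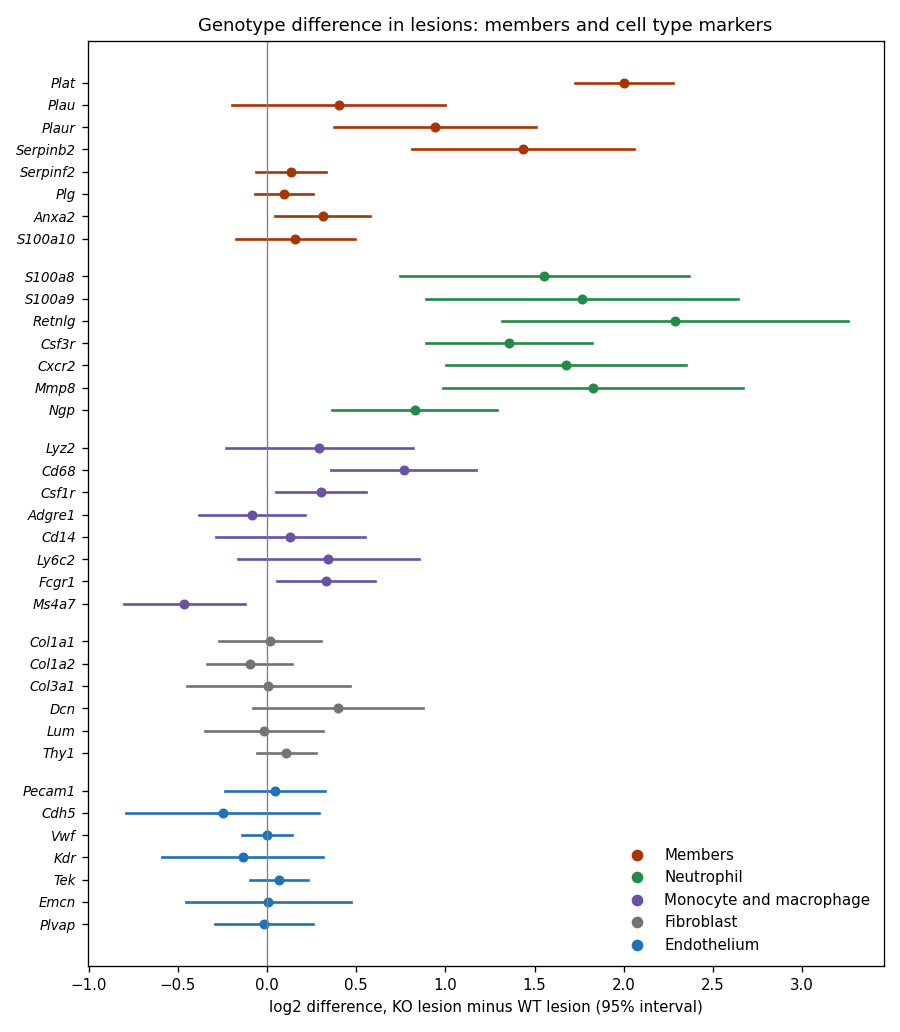
Log2 difference between KO and WT lesions (x axis) for the 8 members and for markers of 4 cell types (y axis). Points are estimates of the fit over all arrays and lines are 95% intervals. Plat lies at 2.001 with the other members between 0.09 and 1.43, the neutrophil markers lie between 0.83 and 2.29, and the median of the endothelial markers is -0.0031.

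Between lesions and controls the marker lists moved as well. Of the neutrophil markers 6 of 7 rose in WT and 7 of 7 in KO, and of the monocyte and macrophage markers 8 of 8 and 7 of 8. Fibroblast markers rose in 5 of 6 in each genotype, endothelial markers in 1 of 7 and 2 of 7, and T cell markers in 3 of 4 in each genotype (Cd3e, Cd3g and Cd2). The mean of the monocyte and macrophage list was 5.78 to 6.24 in WT controls and 7.69 to 7.91 in WT lesions, and 5.98 to 6.15 in KO controls and 7.78 to 8.17 in KO lesions. In controls 4 of the 7 neutrophil markers in WT and 5 in KO were below the array median on every array, Retnlg, S100a8, Mmp8 and Ngp among them. Of the 5 hepatocyte markers, read because Plg and Serpinf2 are liver products, none rose and 2 fell in each genotype, Alb and Ttr. Goblet cell markers fell in 3 of 5 in WT and 4 of 5 in KO. Of 8 colon epithelium markers 1 rose and 2 fell in WT, and 4 rose and 2 fell in KO. Slc26a3 differed by -1.74 in WT and -2.22 in KO, and Cdx2 by -0.36 and -0.64. Krt20 was higher by 0.28 and 0.43. How much of the rise of Plau, Plaur and Plat came with these cells was not tested.

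The sequences before the start sites of 4 members are shown, because only these had a window to search. Plaur, Serpinb2 and Anxa2 were called higher in KO lesions and Serpinf2 was not called. Plat, Plau, S100a10 and Plg had no window and were not searched, so matches cannot be compared between members that rose and members that did not. The windows hold 250 bases upstream of an annotated transcript start, read 5′ to 3′ on the gene's strand from RefSeq on GRCm38.p6, and such windows were given for 4 of the 8 members. They lie at chr7:24462233-24462482 (plus strand) for Plaur, chr1:107511173-107511422 (plus strand) for Serpinb2, chr9:69453433-69453682 (plus strand) for Anxa2 and chr11:75439502-75439751 (minus strand) for Serpinf2. Serpinb2 has a second annotated start close by, whose window overlaps the one shown. Capitals mark the letters TGANTCA, the core of an AP-1 site, searched on both strands.
Plaur: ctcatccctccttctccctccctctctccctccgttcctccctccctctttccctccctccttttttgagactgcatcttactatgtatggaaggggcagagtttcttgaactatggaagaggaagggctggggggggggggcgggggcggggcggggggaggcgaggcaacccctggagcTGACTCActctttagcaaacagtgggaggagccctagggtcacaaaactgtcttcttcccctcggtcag
Serpinb2: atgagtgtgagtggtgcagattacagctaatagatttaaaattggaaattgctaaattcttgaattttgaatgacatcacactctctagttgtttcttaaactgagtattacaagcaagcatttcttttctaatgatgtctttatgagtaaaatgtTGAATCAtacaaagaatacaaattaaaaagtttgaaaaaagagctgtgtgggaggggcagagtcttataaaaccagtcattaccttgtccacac
Anxa2: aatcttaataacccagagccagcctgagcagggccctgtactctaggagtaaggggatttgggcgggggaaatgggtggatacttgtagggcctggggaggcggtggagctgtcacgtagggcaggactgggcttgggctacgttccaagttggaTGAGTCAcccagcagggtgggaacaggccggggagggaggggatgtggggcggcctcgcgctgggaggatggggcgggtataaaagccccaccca
Serpinf2: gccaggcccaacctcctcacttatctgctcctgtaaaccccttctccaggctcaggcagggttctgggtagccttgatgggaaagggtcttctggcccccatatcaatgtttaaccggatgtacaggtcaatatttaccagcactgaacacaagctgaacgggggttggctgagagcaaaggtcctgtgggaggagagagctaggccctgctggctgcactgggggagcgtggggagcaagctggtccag

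TGANTCA was found once in each of the windows of Plaur, Serpinb2 and Anxa2, beginning 69, 94 and 95 bases before the start, and not in that of Serpinf2. It occurs in 6.75% of all 32851 promoter windows of this length. The core promoter letters TATAAA were in the windows of Serpinb2 and Anxa2 and in 12.4% of all windows. TTGCNNAA, a loose C/EBP pattern, was in those of Plaur and Serpinb2 and in 9.56% of all windows. GGGCGG, a GC box, was in those of Plaur and Anxa2 and in 32.7% of all windows. GGGANNNNCC, a loose NF-kB pattern, was in that of Plaur and in 17.6% of all windows. None of the 4 genes' windows held TGACGTCA, a cyclic AMP response element found in 1.55% of all windows. None held the TEAD letters CATTCC either, which were in 12.6% of all. TTCNNNGAA (STAT) was found in the window of the second Serpinb2 start alone among the members and in 7.02% of all. The CCAAT box was in the Serpinb2 window shown and in 33.9% of all windows. The window of Anxa2 held CACCC, as did 52.0% of all. These 10 patterns were searched after the responses were known, AP-1 was marked after the matches were seen, patterns can overlap one another, and a match is a description of letters and not of binding.

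The rest of the plasminogen system was read from a list of 41 genes by role, of which 36 were measured. In WT lesions 14 were called higher and 1 lower, and in KO lesions 16 higher and none lower, beside the shares of all genes called higher, 6.98% and 8.99%, and lower, 8.37% and 12.1%. The median log2 difference was 0.07 in WT and 0.26 in KO. None of the 3 other activators and contact proteases measured (F12, Kng1 and Hpn) passed in either genotype. Kng1 was below the array median on every array, so little can be read from its differences. Of 6 other inhibitors, Serping1, which encodes the C1 inhibitor that also acts on contact proteases, rose 4.27-fold in WT (log2 2.09, SE 0.15, limma adjusted p = 3.24e-07) and 3.64-fold in KO (log2 1.86, SE 0.17, limma adjusted p = 1.55e-06). Thbd, thrombomodulin, passed in KO at 0.38. The other 4 inhibitors, Serpina5, Serpini1, A2m and Pzp, were below the array median on every array, so little can be read from their differences.

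Of 13 other receptors, cofactors and clearance genes, 5 rose in WT and 6 in KO, and Vldlr, a receptor that clears activator and inhibitor complexes, fell by 0.42 in WT. All 5 in WT were integrin chains: Itgam and Itgb2, which form Mac-1 and pair with uPAR on leukocytes, rose by 1.54 and 1.56 in WT and by 2.54 and 2.32 in KO. Itgav, the alpha chain of vitronectin receptors, rose by 1.68 in WT and 2.36 in KO. Itgb1 and Itga5 passed in both genotypes, and Mrc2, a collagen uptake receptor that joins uPAR complexes, passed in KO at 0.36. Plgrkt, a plasminogen receptor, differed by 0.04 in WT and 0.01 in KO without passing. Hrg was below the array median on every array, so little can be read from its differences.

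Of 14 substrates of plasmin or of its activators, 8 rose in each genotype. Hgf, hepatocyte growth factor, rose by 2.39 in WT and 2.55 in KO, and Tgfb1, a growth factor stored in latent form, by 1.08 and 1.45. Thbs1, thrombospondin 1, rose by 0.74 and 1.67, and Mmp9, a gelatinase, by 1.28 and 2.19. Mmp3, a stromelysin, rose by 2.83 and 3.505. Fn1, fibronectin, rose by 2.76 and 3.39. Mmp10, a second stromelysin, rose by 5.54 and 6.45, and Mmp13, a collagenase, by 6.55 and 7.37. Mmp3, Mmp10 and Hgf were below the array median on every control array, so that their differences are uncertain. Mmp13 lay near the array medians in controls, with means of 4.88 in WT and 4.86 in KO, so the size of its rise is uncertain too. The fibrinogen genes Fga, Fgb and Fgg, whose products form the fibrin that plasmin cuts, differed by -0.09 to 0.06 without passing in either genotype. All of them, and Bdnf as well, were below the array median on every array of every group, where RMA compresses differences. Little can be read from their small differences.

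**Figure D4:**
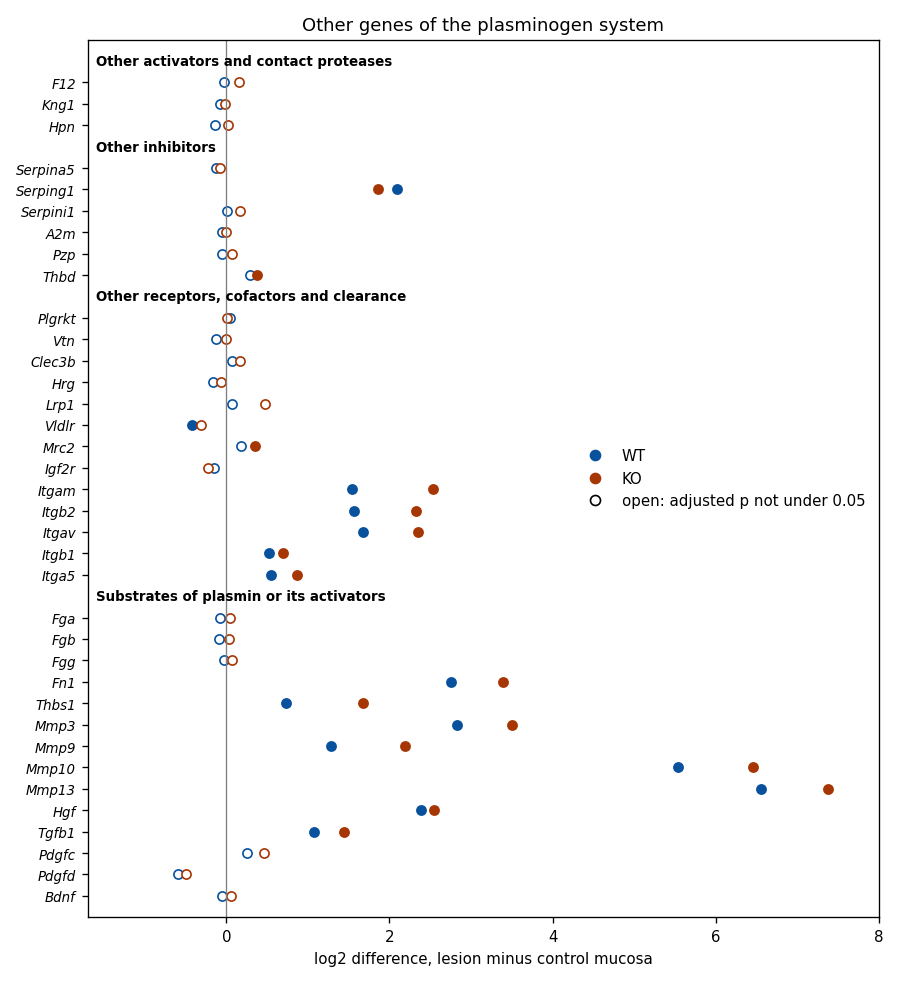
Log2 difference between lesions and control mucosa (x axis) for the 36 measured genes of the plasminogen system outside the member set (y axis), grouped by role, in WT and in KO. Filled points passed the adjusted threshold and open points did not. Integrin chains, Serping1 and 8 substrates lie to the right in both genotypes, while the 3 contact and activator genes and the fibrinogen genes lie near 0. Kng1, Serpina5, Serpini1, A2m, Pzp, Hrg, Bdnf and the fibrinogen genes were below the array median on every array. Little can be read from their open points.

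Between KO and WT lesions none of the 36 genes passed by limma, with 9 at an unadjusted p under 0.05, all higher in KO, where 4130 of all 30710 genes had such a p. The nearest to the threshold were Mmp10 (0.91, limma adjusted p = 0.0600) and Itgam (0.95, limma adjusted p = 0.0625), followed by Itgav (0.58) and Thbs1 (0.90). Without KO lesion 3, 7 of the 36 passed, where 1698 of all 30710 genes were called. Without KO lesion 4, 2 of the 36 passed, where 52 of all genes were called.

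The genes nearest to the members were found by the root-mean-square difference of log2 values over the 16 arrays, each gene centred on its own mean. For Plat they were Csf3r, the G-CSF receptor of neutrophils, at 0.30, Arg1, arginase 1, at 0.36 and Aldh1a3, a retinal dehydrogenase, at 0.37. Csf3r had means of 5.05, 6.58, 5.07 and 7.94 in WT controls, WT lesions, KO controls and KO lesions. For Plau they were Pdpn, podoplanin, at 0.25, Cxcl10, a chemokine, at 0.27 and Glipr1 at 0.28. For Plaur they were Sema7a, a semaphorin, at 0.25, Adm, adrenomedullin, at 0.28 and Gsap at 0.30. For Serpinb2 they were Alox5ap, which presents arachidonic acid to 5-lipoxygenase, at 0.18, Trim30b at 0.25 and Ifitm6 at 0.26. Among the members themselves Plau and Plaur were each other's nearest at 0.48, and the nearest member to Plat was Plaur at 0.54. All 16 arrays enter the measure, so it mixes differences between groups with differences within them.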

How the data were processed

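RNA from 16 samples was measured on Affymetrix arrays, 1 array per sample. The deposited values are log2 expression, and the submitters' processing notes name RMA and Affymetrix Power Tools 1.16.1; the build behind the annotation is not given in the sources used here. Of 72688 rows, the probe-to-gene table lists 32750, of which 31268 had 1 gene after old symbols were updated through RefSeq (GRCm38.p6) and 1482 had several, which were not used. The highest-mean row was kept per gene, giving 30710 genes. Groups came from the titles.

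limma 3.58.1 in R 4.3.3 was used for one model of 4 group means on the 16 arrays, with moderated variances, two-sided tests, Benjamini-Hochberg adjustment over all genes and a threshold of 0.05. Members, gene lists and alternatives were chosen with earlier results of these data known. The rule names all members, list genes called at 2-fold in a response or in a genotype comparison, and the 3 nearest profiles (symbols beginning with Gm or ending in Rik left out). Another gene that the rule names is not reported here. Thbd, Vldlr, Mrc2, Itgb1, Itga5, Plgrkt, Serpina5, Serpini1, A2m, Pzp, Hrg, Bdnf and the fibrinogen genes were named after their values were seen. The fit was tested on simulated data for each comparison, with independent normal noise of equal spread in the 4 groups. KO lesions spread more for most members, so recovery in comparisons with KO lesions may be overstated. Of simulated log2 changes of 1 the fit recovered 76.1% in the interaction and 85.1% to 91% in the other comparisons. Of changes of 0.5 it recovered 25.8% in the interaction and 59.1% to 72.7% in the others. Interactions of these sizes that did not pass may therefore have been missed. Same-numbered samples deviated together in the lesion comparison of genotypes, where every pair's correlation of deviations was over 0.1. In the other comparisons not every pair did (in the WT response the lowest was 0.0969). The labels do not say what the replicate numbers share. Alternatives were other variance models, weights, filters, row rules, scalings, the replicate block, the number series and leaving out each array.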

Additional observations from a re-analysis of the deposited data

Results flagged for a closer look

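Groups of 6 WT controls and 4 KO lesions were checked for an outlying array in 16 member groups, and chance flags about 1 in 20 groups. Serpinf2 on WT control 1 stood at 6.44, against 6.22 to 6.25 on the other WT controls.

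The response of Plat differed between genotypes by the interaction term, at 2.06 on the log2 scale, larger in KO. This value chose the gene and is not independent support.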

How the results depend on the processing

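In the WT response 4 to 6 members were called over all alternatives, and in the KO response 4 to 6; no member was called on the control diet in any. Between KO and WT lesions, where 1 member was called as reported, 2 were called with array weights and 2 with arrays centred on their 75th percentiles, 0 with the replicate block, and 1 to 3 leaving out each replicate. In the interaction the count was 0 with the replicate block and 1 to 2 leaving out each replicate. Of the 36 other pathway genes, against 0 as reported, 6 were called between lesions with array weights, 5 with the 75th percentile, 1 among genes above the median of all rows, and 0 to 7 leaving out each replicate; in the interaction 0 to 4. The cause of these changes was not tested, except that the block fit uses 3 pairs. In the lesion comparison and the interaction, the high end of each range leaving out a replicate is without KO lesion 3. Small uncalled differences changed sign: in the KO response Serpinf2 was -0.0312 and Plg -0.0159 with the number series as a covariate, Serpinf2 was -0.0314 to 0.0939 leaving out each replicate, and S100a10 in the interaction -0.0183 to 0.21. No other member value changed sign; single values of the control diet comparison, all uncalled, were not followed across alternatives. With the replicate block, in comparisons where the numbers do not pair the arrays, Plau (2.69, limma adjusted p = 0.0554) and S100a10 (0.68, limma adjusted p = 0.0997) were not called in the KO response, where 858 genes were called against 6473; in the WT response 5 members were called. Plat was called between lesions and in the interaction in every alternative run except the block. These runs refit the values that chose Plat, so the calls are a description and no independent support. Over all genes, the lesion comparison called 1 with only its groups in the fit, 714 with array weights, 29 and 217 with arrays centred on medians and on 75th percentiles, 58 with the number series as a covariate and 4 to 1698 leaving out each replicate, against 94; the interaction called 1 to 518 leaving out each replicate, against 1; the KO response called 2515 with the covariate, and the WT response 2984 in the lower series alone, against 4715. Serpinb2 has no value among genes above the median of all rows, and the number of arrays limits the precision.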
